A study of Homo sapiens with 4 samples.

Results

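Immediate early genes and YAP response genes were read as 10 genes, EGR1, IER3, IER2, FOS, FOSL1, JUN, JUNB, CCN1, CCN2 and ANKRD1, through every probe set that the platform annotation assigned to exactly 1 of these symbols. This gave 16 of the 54675 probe sets on the array, and 10 of the 19775 genes read. The series measured total RNA of 4 modified human colorectal cancer cell lines, with 1 Affymetrix array for each. HCT116, a colorectal carcinoma line, was measured as HCT116-CDX1 and HCT116-Vec, and LS174T, a mucin-producing colon adenocarcinoma line, as LS174T-siCDX1 and LS174T-siVec. The names were read as CDX1 raised in HCT116 against its vector, and CDX1 lowered in LS174T against its vector. Constructs, clones, culture times and harvest conditions are not given in the sources used here. CDX1, a homeobox transcription factor of the gut lining, was studied as a candidate regulator of the keratin gene KRT20.

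Immediate early genes are transcribed within minutes of a growth factor or stress signal without new protein synthesis. The kinase ERK phosphorylates ETS cofactors that sit with serum response factor (SRF) on the EGR1 and FOS promoters, and the FOS and JUN family proteins then pair as the transcription factor AP1. YAP1 and its relative TAZ, the product of WWTR1, are coactivators held back by the Hippo kinases. In the nucleus they bind TEAD proteins on CCN1, CCN2 and ANKRD1, and these genes are widely used as a readout of cell density and cytoskeletal tension. In intestinal epithelium both programmes are linked to proliferation and repair.

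Promoter sequences are shown for the members that differ most in how they moved: EGR1 and CCN2, which were at least 2-fold lower in LS174T-siCDX1 than in LS174T-siVec, FOS, which was higher in both modified lines, and ANKRD1, which shares the TEAD motif of CCN2 but gave no clear signal. RefSeq promoters of build GRCh38.p14, from 250 bases before to 50 bases after the annotated start, were matched for 7 of the 10 members, and capitals mark the CArG box (the SRF motif) in EGR1, the TEAD core GGAATG in CCN2 and ANKRD1, and the cyclic AMP response core TGACGT with the TATA box TATAAA in FOS.
EGR1 (chr5:138465229-138465528, + strand): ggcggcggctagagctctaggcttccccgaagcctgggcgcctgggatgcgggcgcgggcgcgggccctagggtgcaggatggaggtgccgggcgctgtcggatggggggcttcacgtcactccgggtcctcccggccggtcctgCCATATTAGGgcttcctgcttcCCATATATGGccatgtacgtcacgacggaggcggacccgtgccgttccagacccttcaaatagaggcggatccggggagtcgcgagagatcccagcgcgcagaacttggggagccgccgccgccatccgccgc
CCN2 (chr6:131951323-131951622, - strand): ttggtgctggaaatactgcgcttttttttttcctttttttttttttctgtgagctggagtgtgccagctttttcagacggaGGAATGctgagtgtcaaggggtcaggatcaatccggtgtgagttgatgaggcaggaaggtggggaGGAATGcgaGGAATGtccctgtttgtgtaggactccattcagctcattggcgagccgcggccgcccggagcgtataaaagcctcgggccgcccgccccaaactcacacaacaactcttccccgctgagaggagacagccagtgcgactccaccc
ANKRD1 (chr10:90921038-90921337, - strand): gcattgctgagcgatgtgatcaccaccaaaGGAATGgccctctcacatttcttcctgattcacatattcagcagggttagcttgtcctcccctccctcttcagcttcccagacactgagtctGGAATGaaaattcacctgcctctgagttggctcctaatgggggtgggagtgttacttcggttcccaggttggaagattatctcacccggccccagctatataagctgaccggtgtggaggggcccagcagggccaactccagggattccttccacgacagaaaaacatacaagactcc
FOS (chr14:75278578-75278877, + strand): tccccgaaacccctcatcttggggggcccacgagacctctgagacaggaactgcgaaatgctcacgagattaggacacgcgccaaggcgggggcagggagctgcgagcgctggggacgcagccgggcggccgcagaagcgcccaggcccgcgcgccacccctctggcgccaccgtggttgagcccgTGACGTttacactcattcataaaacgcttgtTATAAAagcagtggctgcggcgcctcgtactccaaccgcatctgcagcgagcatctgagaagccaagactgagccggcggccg

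Both strands were searched for 8 motifs. EGR1 held 2 CArG boxes, at -105 to -96 and -83 to -74 counted from 0 at the start site. At least 1 CArG box was present in 1.29% of 35116 promoters of the same length, and 2 or more in 0.0313%. CCN2 held 3 GGAATG matches and ANKRD1 held 2. Of all promoters, 14.03% held at least 1 GGAATG match and 0.128% held 3 or more. TGACGT was present in EGR1, at 2 positions, and in FOS, against 7.98% of all promoters. The full element TGACGTCA (1.85% of promoters) and the caudal-type core TTTATNG (9.73%) were in 0 of the 7 windows. The AP1 core TGANTCA (7.71%) was in ANKRD1, TATAAA (11.5%) was in FOS, JUNB and CCN2, and the GC box GGGCGG (45.0%) was in IER2, FOS, JUN and CCN2. The SRF element known from FOS lies further upstream, outside the window shown. No matches of different motifs overlapped in these windows. A match is a description of the letters and not of binding.

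**Figure D1:**
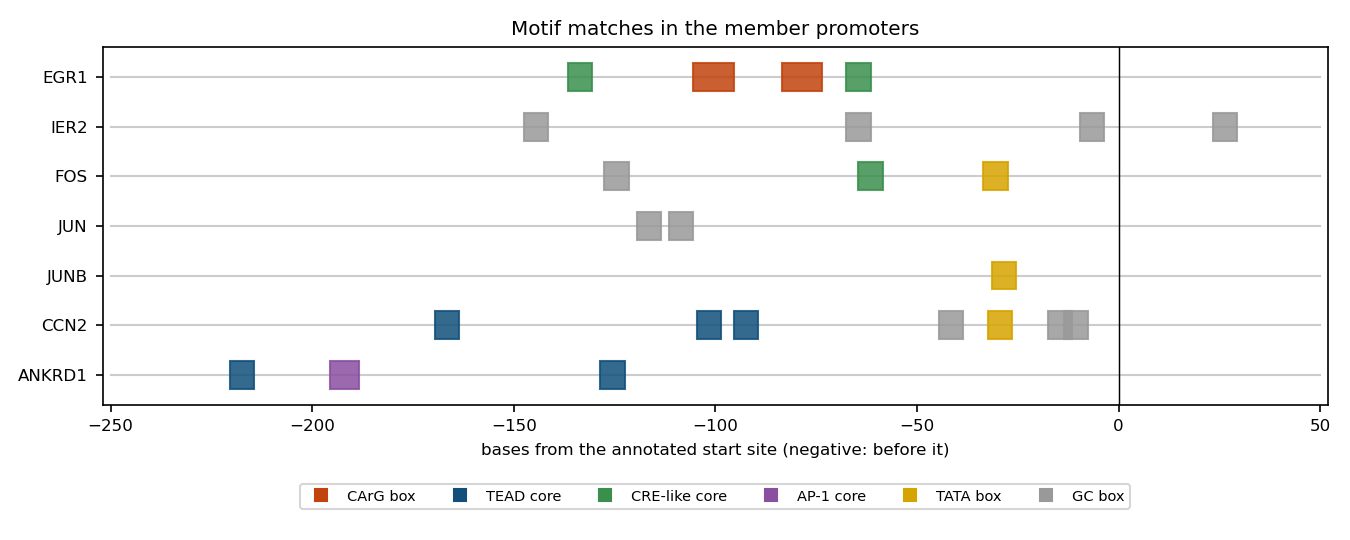
Motif matches in the promoters of 7 members, drawn to scale as bases from the annotated start site (vertical line), with 1 row per gene and 1 colour per motif. The 2 CArG boxes of EGR1 lie between -105 and -74, and the 3 TEAD cores of CCN2 between -169 and -90.

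Levels are RMA expression values, log2 scale. A gene was taken as measured in a comparison where the brighter array was at least 6, and "rose" and "fell" are used of measured genes that differed by at least 1, which is 2-fold. Each group was a single array, so the spread between cultures was not measured, and only large differences within a pair are read. A gene with several probe sets was read from the one with the highest mean. For members the other probe sets are given beside it, and for other genes the range over probe sets is given where they disagree in sign or size. A whole-culture RNA level does not tell fewer expressing cells from less RNA per cell. Bacterial and phage control probe sets, 30 in all, differed by up to 0.364 within the HCT116 pair and by up to 0.339 within the LS174T pair. Between the vector arrays they differed by up to 0.508. The difference of the end and start probe sets of GAPDH was between -0.07 and -0.03 on all 4 arrays. All 9 markers of colorectal epithelium read were measured in each comparison. EPCAM (12.82 to 13.24) and KRT18 (13.07 to 13.74) were bright on each array. VIL1 and CDX2 were at 7.04 to 7.62 on the HCT116 arrays and at 9.14 to 10.91 on the LS174T arrays. CDH1 went the other way, at 10.59 to 11.41 on the HCT116 arrays and at 8.76 to 8.80 on the LS174T arrays. Of 11 markers of stromal, immune and endothelial cells, 9 lay at or above 6 on each array, with summed linear levels of 1662 on the array labelled HCT116-CDX1, 1709 in HCT116-Vec, 1677 in LS174T-siCDX1 and 1628 in LS174T-siVec.

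The targeted gene set a limit on the HCT116 pair. CDX1 was at 8.24 on the array labelled HCT116-CDX1 and at 8.21 in HCT116-Vec, so its probe set gave no sign of raised CDX1, and each direction given for that pair rests on the label; whether the probe set reads the introduced construct is not given in the sources used here. In LS174T it was at 9.06 in LS174T-siCDX1 and at 10.46 in LS174T-siVec, and it fell by 1.40. KRT20 was at 9.38 on the array labelled HCT116-CDX1 against 6.36 in HCT116-Vec, and at 5.45 in LS174T-siCDX1 against 8.15 in LS174T-siVec. All 9 epithelial markers lay below 0 in the LS174T pair, and beside KRT20 and CDX1 the keratin genes KRT19 at -1.69 and KRT8 at -1.49 fell in LS174T-siCDX1, with KRT19 at 0.19 on its second probe set. These falls stand beside those of EGR1, IER3 and CCN2 described next, and their part in them was not tested.

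EGR1, a zinc finger transcription factor and the standard marker of ERK signalling to SRF, was highest on the array labelled HCT116-CDX1 and lowest in LS174T-siCDX1. Its brightest probe set read 12.24 on the array labelled HCT116-CDX1, 11.41 in HCT116-Vec, 9.03 in LS174T-siCDX1 and 10.12 in LS174T-siVec. EGR1 fell in LS174T-siCDX1 by 1.08 (2.12-fold) and differed by 0.83 (1.78-fold) in the HCT116 pair. Its second probe set read 11.34 on the array labelled HCT116-CDX1, 10.66 in HCT116-Vec, 8.68 in LS174T-siCDX1 and 9.71 in LS174T-siVec. The third, dimmer one read 9.15, 8.67, 7.69 and 8.12 on the same arrays in the same order. All 3 EGR1 probe sets thus ordered the arrays alike, while the LS174T difference ran from -1.08 to -0.42 among them. As the mean of its probe sets EGR1 differed by -0.85 in the LS174T pair, which is less than 2-fold.

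IER3, a stress-inducible gene whose product modulates ERK signalling and cell survival, followed the same order. IER3 was at 12.94 on the array labelled HCT116-CDX1, 12.27 in HCT116-Vec, 9.40 in LS174T-siCDX1 and 10.46 in LS174T-siVec. It fell in LS174T-siCDX1 by 1.07 (2.09-fold), and the HCT116 difference was 0.67 (1.59-fold). IER2, which encodes a nuclear protein of the growth factor response, was at 12.48 on the array labelled HCT116-CDX1, 12.23 in HCT116-Vec, 11.40 in LS174T-siCDX1 and 11.74 in LS174T-siVec. The order was again the same, but the IER2 differences of 0.25 in HCT116 and -0.34 in LS174T were small, the first within the range of the control probe sets and the second just past it. EGR1 and IER3 were read only by probe sets with names ending in _s_at, which are marked as shared between transcripts.

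Among the AP1 subunits, FOS was higher in both modified lines than in their vector lines. FOS was at 9.79 on the array labelled HCT116-CDX1 and 8.80 in HCT116-Vec, a difference of 0.99 (1.98-fold). It was at 10.51 in LS174T-siCDX1 and 9.58 in LS174T-siVec, a difference of 0.93 (1.91-fold). Both values lay just under 2-fold, so FOS did not count as changed, although only 0.829% of measured probe sets were at or above its difference in HCT116 and 0.577% in LS174T. After quantile normalization both FOS differences passed 2-fold, at 1.02 and 1.03. With the CDX1 label taken as the direction, the sign of the FOS difference was opposite in the 2 lines. JUNB, an AP1 subunit that restrains JUN in many cell types, was at 11.11 on the array labelled HCT116-CDX1, 10.21 in HCT116-Vec, 9.62 in LS174T-siCDX1 and 10.13 in LS174T-siVec. JUNB thus differed by 0.90 (1.87-fold) in HCT116 and by -0.51 in LS174T. Its levels were in the same order as those of EGR1, but its vector arrays differed by only -0.08. JUNB passed 2-fold in HCT116, at 1.01, once a loess on mean level was subtracted.

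JUN, the founding AP1 subunit, moved little. Its brightest of 4 probe sets, marked as open to cross-hybridisation, was at 11.04 on the array labelled HCT116-CDX1, 10.82 in HCT116-Vec, 10.28 in LS174T-siCDX1 and 10.50 in LS174T-siVec. Over the 4 JUN probe sets the difference ran from -0.12 to 0.22 in HCT116 and from -0.46 to -0.12 in LS174T, so all 4 read lower in LS174T-siCDX1 than in LS174T-siVec. FOSL1, the Fos family member that accumulates under sustained ERK signalling, was at 11.18 on the array labelled HCT116-CDX1, 11.36 in HCT116-Vec, 8.28 in LS174T-siCDX1 and 8.77 in LS174T-siVec. Its differences were -0.18 in HCT116 and -0.50 in LS174T, and the levels separated the lines far more than the pairs.

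**Figure D2:**
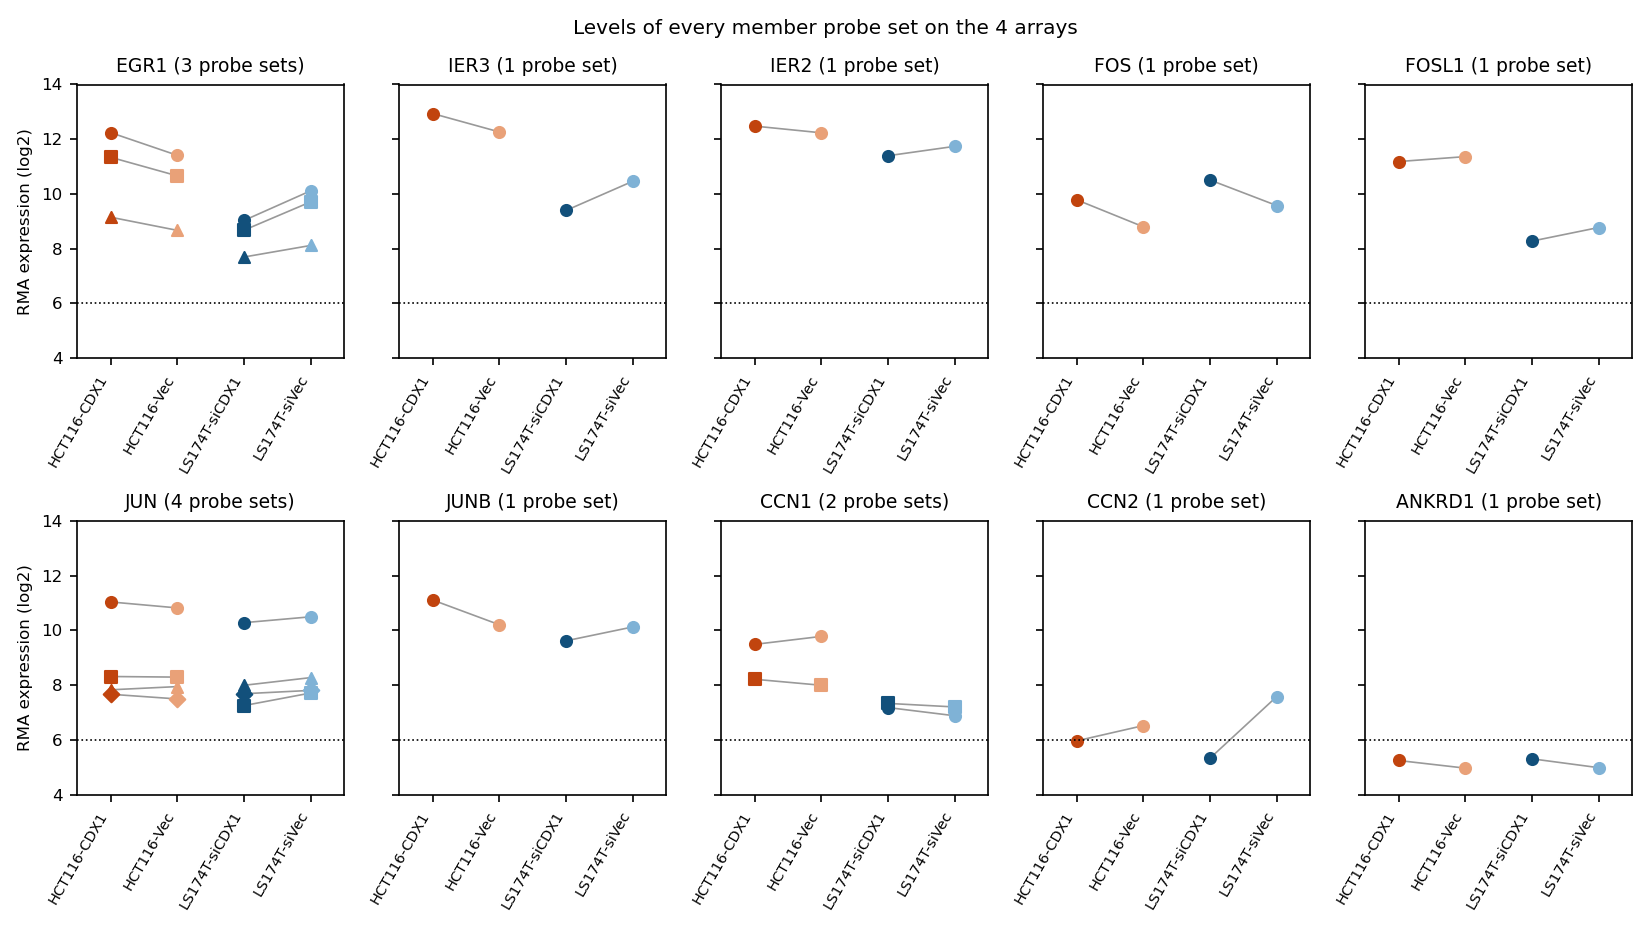
RMA expression (log2) of all 16 member probe sets on the 4 arrays, with 1 panel per gene, 1 marker shape per probe set and grey lines joining the arrays of a pair; the dotted line is the level of 6 for a measured gene. EGR1, IER3, IER2 and JUNB are highest on the array labelled HCT116-CDX1 and lowest in LS174T-siCDX1, CCN2 is lowest in LS174T-siCDX1 at 5.33, and ANKRD1 stays below 6.

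CCN2, which encodes the secreted matrix-associated protein also called connective tissue growth factor, had the largest difference of any member within a pair. CCN2 was at 5.33 in LS174T-siCDX1 and 7.58 in LS174T-siVec, so that it fell by 2.25. That was 4.76-fold as read, and at least 2.99-fold with the dimmer level set to 6. Only 0.168% of measured probe sets were at or below that difference. In HCT116 it was at 5.96 on the array labelled HCT116-CDX1 and 6.52 in HCT116-Vec, a difference of -0.56. Both levels lay near the floor of 6, which 9 of 11 markers of other cell types also reached. Of measured probe sets, 5.33% were at or below that difference, so the HCT116 direction is weakly read. As read, CCN2 was lower in both modified lines than in their vector lines, the reverse of FOS. Its difference with the CDX1 label also had opposite signs in the 2 lines.

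CCN1, the close relative of CCN2 and likewise a YAP target, differed little within either pair. Its brighter probe set was at 9.49 on the array labelled HCT116-CDX1, 9.78 in HCT116-Vec, 7.18 in LS174T-siCDX1 and 6.88 in LS174T-siVec. The CCN1 differences were -0.29 in HCT116 and 0.30 in LS174T, inside the range of the control probe sets. The second probe set read 8.22, 7.996, 7.33 and 7.20 on the same arrays in the same order, with differences of 0.22 and 0.13. ANKRD1, an ankyrin repeat protein of muscle that responds to YAP in many cells, was at 5.25 on the array labelled HCT116-CDX1, 4.97 in HCT116-Vec, 5.31 in LS174T-siCDX1 and 4.98 in LS174T-siVec. All 4 levels were below 6, so ANKRD1 was not measured in any comparison.

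Of the 9 members measured in the LS174T pair, 3 fell (CCN2, EGR1 and IER3) and 0 rose in LS174T-siCDX1, where 1.25% of all measured genes fell and 0.598% rose. The members were chosen with earlier results of these data known. These counts and those below therefore describe the members and do not test the gene class. The median of the 9 differences was -0.50 and that of all measured genes -0.01. On the array labelled HCT116-CDX1 the count was 0 of 9 in each direction. In that pair 1.89% of all measured genes changed, and the median was 0.25 for the members beside -0.01 for all. The members EGR1, IER3, IER2, JUN and JUNB lay above 0 in HCT116 and below 0 in LS174T, the direction of the CDX1 label in both; 23.5% of the 16530 genes measured in both pairs did so. The same 5 of 9 had their levels in the order HCT116-CDX1, HCT116-Vec, LS174T-siVec, LS174T-siCDX1 from high to low, an order found in 7.18% of measured genes and noticed after the values were seen. JUN was counted in both on its brightest probe set, and not all of its 4 probe sets shared the order or the HCT116 direction. Both JUN differences, and that of IER2 in HCT116, lay within the range of the control probe sets. The middle step of the order, between the vector arrays, also lay within the control range there, up to 0.508, for 3 of the 5 genes. These were IER2 at -0.49, JUN at -0.32 and JUNB at -0.08.

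**Figure D3:**
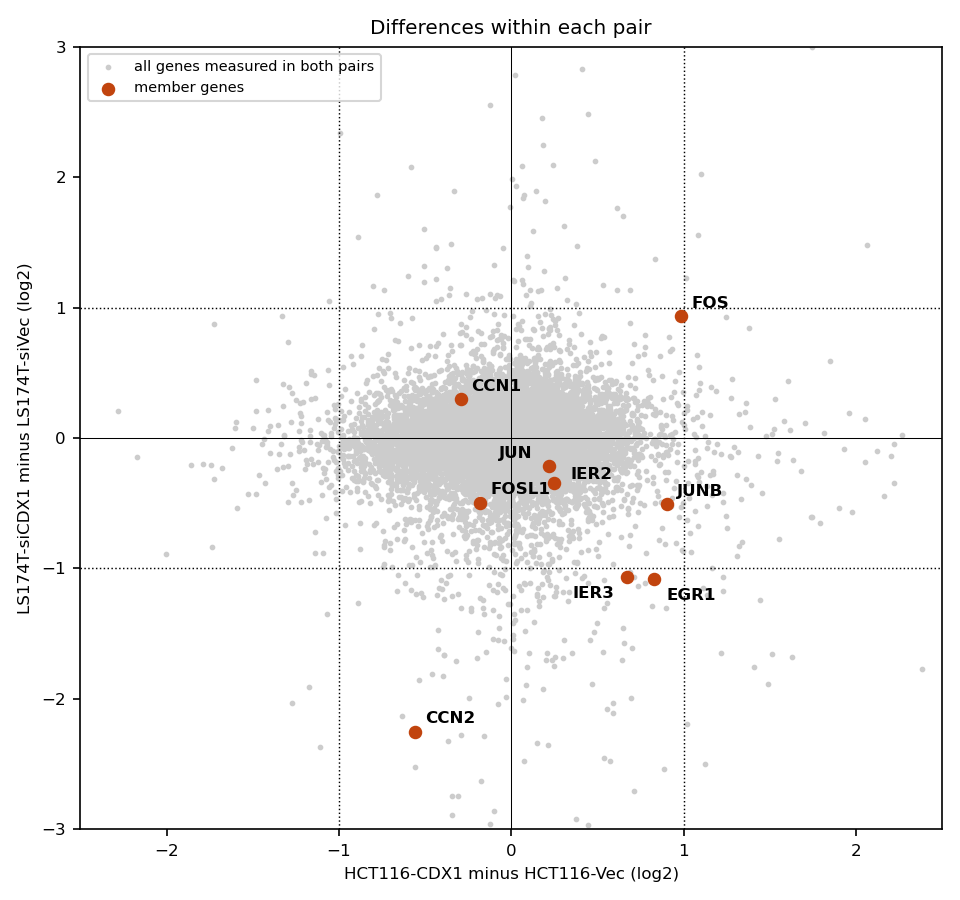
Difference on the array labelled HCT116-CDX1 minus HCT116-Vec (horizontal, log2) against LS174T-siCDX1 minus LS174T-siVec (vertical, log2) for the 16530 genes measured in both pairs, in grey, with 27 genes beyond the axes not drawn; dotted lines mark 2-fold. EGR1, IER3 and JUNB lie at the lower right, FOS at the upper right near both lines of 2-fold, and CCN2 at the lower left at -0.56 and -2.25.

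Of the 9 measured members, 5 differed at least 2-fold between the vector lines. LS174T-siVec was set against HCT116-Vec, and both arrays also serve in the pairs above. CCN1 differed by -2.90 on its brighter probe set (7.46-fold lower in LS174T-siVec) but by only -0.79 on its second, so its size is uncertain while its direction is shared. FOSL1 was lower in LS174T-siVec at -2.59 (6.03-fold), IER3 at -1.80 (3.49-fold) and EGR1 at -1.29 (2.45-fold). EGR1 ran from -1.29 to -0.55 over its probe sets and was at -0.93 as their mean. CCN2 was the member that was higher, by 1.06 (2.08-fold), while FOS was higher by 0.78, IER2 differed by -0.49, JUN by -0.32 and JUNB by -0.08. JUN had no settled direction, since its 4 probe sets ran from -0.58 to 0.33. The differences of IER2, JUN and JUNB lay within the range of the control probe sets, up to 0.508 between these arrays. In all, 4 of 9 measured members were at least 2-fold lower in LS174T-siVec and 1 was higher, where 7.33% of measured genes were lower and 6.03% higher.

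All 4 arrays were also fitted together with limma, with the cell line and the CDX1 label as terms and 1 residual degree of freedom, over 41999 probe sets whose brightest array was at least 6. Of 15 member probe sets tested, 10 differed between the lines at a Benjamini-Hochberg adjusted p under 0.05, where 15.6% of all probe sets tested did so. All 10 were lower in LS174T, while of all 41999 probe sets 3276 were called lower and 3286 higher. The 10 include 3 probe sets of EGR1 and 2 of CCN1, so they are not 10 separate genes. The arrays of a line carry different modifications, so their spread is not that of replicate cultures. LS174T minus HCT116 was -2.75 ± 0.21 (SE) for FOSL1 with adjusted p = 0.00333, -2.67 ± 0.17 for IER3 with 0.00208, -2.60 ± 0.14 for the brighter CCN1 probe set with 0.00152 and -2.25 ± 0.15 for the brightest EGR1 probe set with 0.00254. The second CCN1 probe set was at -0.84 ± 0.16 (adjusted p = 0.0343) and the other EGR1 probe sets at -1.81 ± 0.16 and -1.004 ± 0.14 (adjusted p = 0.00503 and 0.0155). IER2 at -0.79 ± 0.14 (adjusted p = 0.0290) and JUNB at -0.79 ± 0.17 (adjusted p = 0.0438) were lower by less than 2-fold. The line term averages the modified and the vector arrays of each line. Between the vector arrays alone JUNB differed by only -0.08, IER3 by -1.80 and the brightest EGR1 probe set by -1.29. The JUNB estimate thus rests mostly on the modified arrays. One JUN probe set was lower at -0.82 ± 0.17 (adjusted p = 0.0424), and the other JUN probe sets did not pass, with adjusted p = 0.0718, 0.419 and 0.523. FOS at 0.75 ± 0.46 and CCN2 at 0.21 ± 0.66 did not pass either, with adjusted p = 0.370 and 0.878, and their errors were the widest of the members, the 2 pairs having opposite signs with the CDX1 label.

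For the CDX1 label, higher minus lower, limma called 0 of 15 member probe sets and 0 of all probe sets (0% called). At an unadjusted p under 0.05 it called 5 of the 15 member probe sets and 1430 of 41999 in all, an overall share below 0.05 itself. The 5 were the 3 of EGR1, at 0.96 ± 0.15, 0.86 ± 0.16 and 0.45 ± 0.14, with IER3 at 0.87 ± 0.17 and JUNB at 0.71 ± 0.17 (SE); each had an adjusted p of 0.9999. FOS was at 0.03 ± 0.46 and CCN2 at 0.85 ± 0.66.

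**Figure D4:**
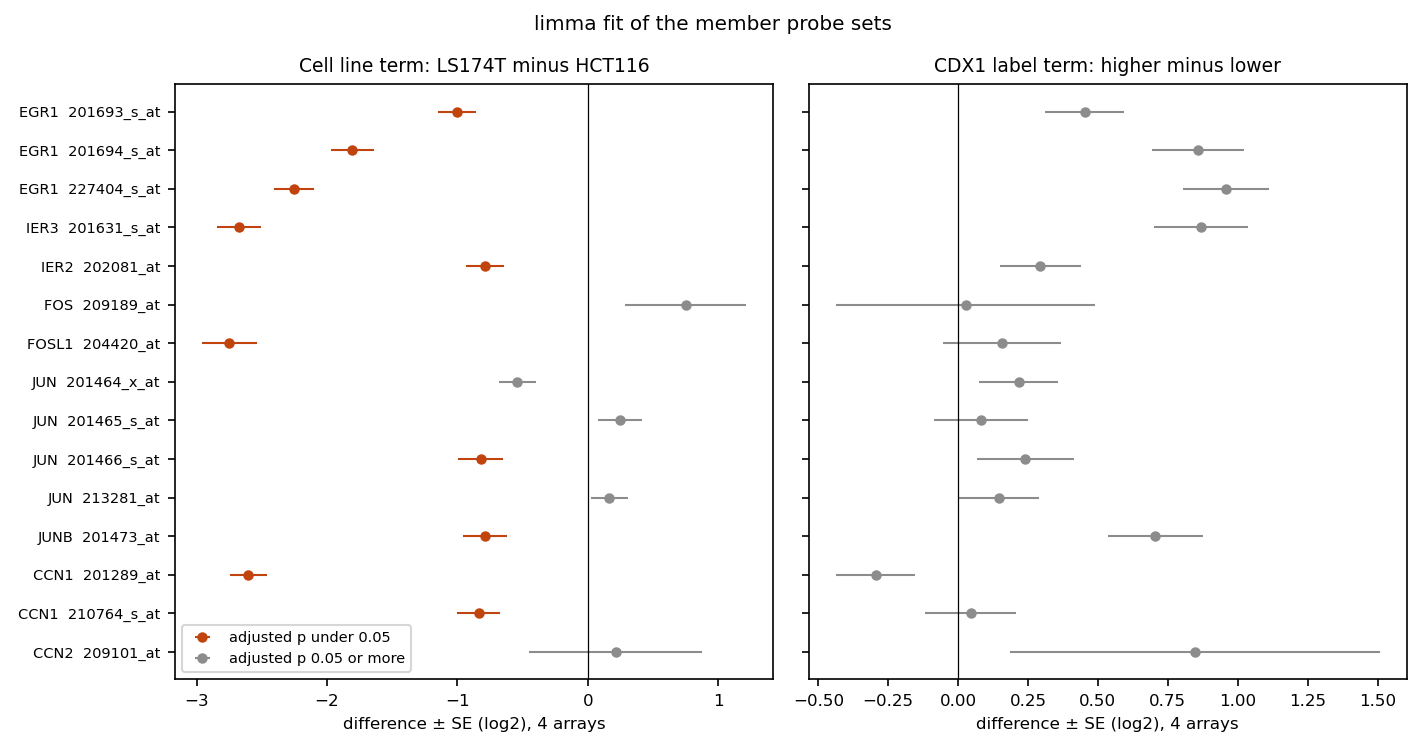
limma estimates (log2) with standard errors from all 4 arrays for the 15 member probe sets tested, LS174T minus HCT116 on the left and CDX1 label higher minus lower on the right; orange marks an adjusted p under 0.05. All 10 orange points lie below 0 on the left, and 0 points are orange on the right.

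Other genes of the same families were read from lists that overlap in 3 genes, TEAD1, LATS2 and AMOTL2. Of 12 measured AP1 partners, JDP2, a repressive dimer partner of JUN, rose by 1.56 on the array labelled HCT116-CDX1 (10.49 against 8.93 in HCT116-Vec). It was the only partner that rose there, against 0.916% of all measured genes. JDP2 was at -0.78 in LS174T, where 0 partners changed, against 1.85% of all measured genes. The second JDP2 probe set differed by 0.13 in HCT116. The medians were 0.11 and -0.10. FOSB and FOSL2, the other Fos family genes, differed by 0.06 and 0.54 in HCT116 and by 0.04 and -0.28 in LS174T. Between the vector lines ATF3 at -2.22, MAFF at -1.27 and BATF3 at -1.03 were lower in LS174T-siVec (3 of 12, against 7.33% of all measured genes), while FOSL2 at 1.58 and JDP2 at 1.28 were higher (2 of 12, against 6.03%). Other probe sets read -0.78 for ATF3, -0.40 for MAFF, 0.98 for FOSL2 and 0.38 for JDP2 at the end nearest to 0.

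Of 4 measured EGR family genes and EGR corepressor genes, 0 changed in HCT116, with a median of 0.53, and 0 of 3 in LS174T, with a median of -0.01. Of all measured genes 1.89% changed in HCT116 and 1.85% in LS174T. NAB2, an EGR1-induced corepressor of EGR1, was at 10.30 on the array labelled HCT116-CDX1, 9.77 in HCT116-Vec, 8.40 in LS174T-siCDX1 and 8.43 in LS174T-siVec, and NAB2 was at -1.34 in LS174T-siVec minus HCT116-Vec. Its difference in the LS174T pair, -0.03, did not follow that of EGR1. In HCT116 the corepressor gene NAB1 ran from 0.06 to 1.04 over its 4 probe sets, and EGR4 from -0.34 to 0.57 over its 3. EGR3 lay near the floor, at 6.19 on the array labelled HCT116-CDX1 and 5.66 in HCT116-Vec. Its difference of 0.53 was 0.19 with levels under 6 set to 6.

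Among the other immediate early genes, PLK2, a polo-like kinase gene, fell by 1.72 and the kinase gene SGK1 by 1.03 on the array labelled HCT116-CDX1. These were 2 of the 31 measured, against 0.97% of all measured genes that fell there. RHOB, which encodes a small GTPase, fell by 1.01 in LS174T-siCDX1, though another of its 5 probe sets differed by 0.05. RHOB was 1 of 30 measured, against 1.25% of all measured genes that fell in that pair. The medians were 0.01 in HCT116 and -0.19 in LS174T. KLF6, a zinc finger factor, lay just under 2-fold in LS174T at -0.99, with its 5 probe sets between -0.99 and -0.17. NR4A1 differed by 0.02 and 0.11 in HCT116 and LS174T, but its probe sets ran from -0.68 to 0.11 in LS174T. MYC differed by -0.03 and 0.07, in HCT116 and LS174T. Between the vector lines 6 of 30 were lower in LS174T-siVec and 0 higher, against 7.33% lower and 6.03% higher of all measured genes, the largest being PLK2 at -3.06, SGK1 at -2.84, KLF10 at -2.10 and IER5 at -1.66.

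SRF and its cofactors stayed within 2-fold in both pairs on their brightest probe sets. Of all measured genes only 1.89% changed in HCT116 and 1.85% in LS174T. Over its 7 probe sets ELK4 ran from -1.09 to 0.12 in HCT116. SRF itself was at 9.20 on the array labelled HCT116-CDX1, 9.64 in HCT116-Vec, 8.96 in LS174T-siCDX1 and 9.10 in LS174T-siVec. The medians of the 6 genes were -0.04 and -0.06 in HCT116 and LS174T, and ELK3, an ETS cofactor of SRF, was at -2.22 in LS174T-siVec minus HCT116-Vec and at -0.67 on its second probe set. Of 15 measured genes of the actin cytoskeleton that SRF is known to regulate, TGFB1I1, a focal adhesion adaptor gene, rose by 1.36 in HCT116. It was the only one that rose there, against 0.916% of all measured genes. In LS174T 0 of 14 changed, against 1.85% of all measured genes, and the median was -0.31. Of the 14, 12 lay below 0, against 51.2% of all measured genes, and the range was from TPM1 at -0.86 to CALD1 at 0.51. The median, and several of the 12, lay within the range of the control probe sets in that pair, up to 0.339. Between the vector lines TGFB1I1 at -2.21 as read, MYL9 at -2.06, TPM2 at -1.92 and CALD1 at -1.63 were lower in LS174T-siVec and TPM1 at 2.13 was higher. Over their probe sets MYL9 ran from -2.06 to -0.01, TPM2 from -1.92 to 0.07, CALD1 from -1.63 to 0.51 and TPM1 from 0.37 to 2.40, so the directions of TPM2 and CALD1 are not settled.

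The further YAP target genes did not move as one group. Of 21 measured in LS174T, the tissue factor gene F3 at -1.15 and the myoferlin gene MYOF at -1.12 fell in LS174T-siCDX1, against 1.25% of all measured genes. IGFBP3, which encodes a binding protein of insulin-like growth factors, rose by 1.58, against 0.598% of all measured genes. The median was 0.03 with 12 above 0 and 9 below. MYOF ran from -1.14 to -0.31 over its probe sets, and IGFBP3 from 1.51 to 1.58. On the array labelled HCT116-CDX1 the ectonucleotidase gene NT5E fell by 1.10, at -1.29 to -0.87 over its 4 probe sets. It was 1 of 21, against 0.97% of all measured genes, and the median was -0.07. AXL was read from a probe set at -0.34 in HCT116, but its second probe set differed by -1.85. AMOTL2, a direct YAP target and YAP-binding protein, differed by 0.07 and -0.43 in HCT116 and LS174T. Between the vector lines 7 of 21 were lower in LS174T-siVec, against 7.33% of all measured genes, led by MYOF at -2.03, FJX1 at -1.96, ASAP1 at -1.72 and F3 at -1.33, and 2 were higher, against 6.03%, DLC1 at 3.64 and IGFBP3 at 2.47. DLC1 ran from -0.23 to 3.64 over its 5 probe sets, MYOF from -2.03 to 0.15 and ASAP1 from -2.40 to -0.53. AXL, not counted at -0.49 on the probe set read, was at -4.52 on its second.

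Genes of the Hippo pathway itself changed in 0 of 22 measured cases in HCT116 and 0 of 21 in LS174T, with medians of 0.07 and -0.02. Of all measured genes 1.89% changed in HCT116 and 1.85% in LS174T, so counts of 0 are near the overall share. YAP1 was at 11.99 on the array labelled HCT116-CDX1, 11.38 in HCT116-Vec, 11.48 in LS174T-siCDX1 and 11.47 in LS174T-siVec. WWTR1 was at 8.74 on the array labelled HCT116-CDX1, 9.17 in HCT116-Vec, 6.78 in LS174T-siCDX1 and 7.45 in LS174T-siVec. YAP1 differed by 0.01 in the LS174T pair, in which CCN2 fell, and its 3 probe sets ran from -0.28 to 0.01. WWTR1 differed by -0.43 in HCT116 and by -0.67 in LS174T on its brightest probe set, but its 3 probe sets ran from -0.67 to 0.85 in LS174T, so that its direction there is not settled. Between the vector lines 5 of 22 were lower in LS174T-siVec, against 7.33% of all measured genes, and 0 were higher, against 6.03%. The largest on the probe sets read were the YAP-binding angiomotin relative AMOTL1 at -2.62, FRMD6 at -2.48 as read, WWTR1 at -1.72 and the Hippo kinase gene STK3 at -1.70. AMOTL1 ran from -2.62 to -0.07 over its 4 probe sets, FRMD6 from -3.18 to -2.48 and WWTR1 from -5.28 to -1.72. The order by size therefore depends on the probe set. The 4 remaining CCN genes differed by 0.13 to 0.23 in HCT116 and by -0.18 to 0.18 in LS174T.

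**Figure D5:**
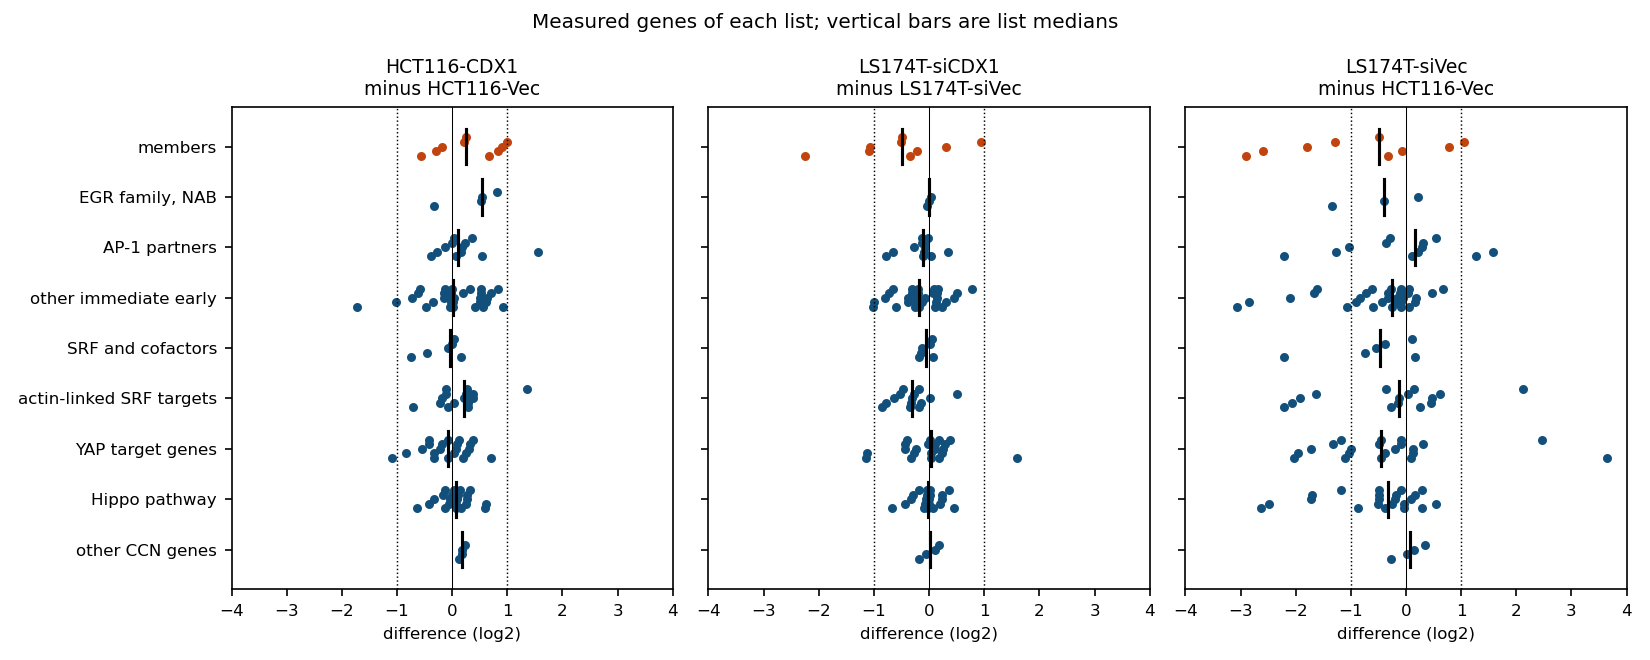
Differences (log2) of the measured genes of each list on the array labelled HCT116-CDX1 minus HCT116-Vec, in LS174T-siCDX1 minus LS174T-siVec and in LS174T-siVec minus HCT116-Vec; each point is a gene, its height within a row has no meaning, black bars are list medians and dotted lines mark 2-fold. The members span -2.25 to 0.93 in the LS174T pair. On their brightest probe sets, the SRF, Hippo and remaining CCN genes stay within 2-fold in both pairs. Of all measured genes only 1.89% changed in HCT116 and 1.85% in LS174T.

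The genes with the most similar pattern were sought by the Euclidean distance of levels centred over the 4 arrays, among 17280 genes with a brightest array of at least 6. For EGR1 they were the cytidine deaminase gene CDA at a distance of 0.23, the pseudokinase gene TRIB1 at 0.30 and the complement regulator gene CD55 at 0.35. CDA read 9.69 on the array labelled HCT116-CDX1, 8.73 in HCT116-Vec, 6.64 in LS174T-siCDX1 and 7.44 in LS174T-siVec. TRIB1 is also a member of the immediate early list, and its 3 probe sets ran from -0.80 to 0.06 in the LS174T pair. For CCN2 they were the calretinin gene CALB2 at 0.29, the sulfide oxidase gene SQOR at 0.43 and the peroxisomal oxidase gene ACOX2 at 0.50. CALB2 read 7.95 on the array labelled HCT116-CDX1, 8.25 in HCT116-Vec, 7.40 in LS174T-siCDX1 and 9.68 in LS174T-siVec. A likeness over 4 arrays is a description only.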

How the data were processed

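The deposited table held log2 expression for 54675 probe sets and was used unchanged. RMA was the authors' processing tool, per the submitters' processing notes; its version and the set of arrays it was run on are not given in the sources used here. Per the labels' protocols, total RNA came from an RNeasy kit and 2 µg was turned into biotinylated cRNA. Samples were grouped by title, 1 array per group. Of the probe sets, 41097 had 1 gene in the platform annotation, 1801 several and 11777 none listed; symbols were checked by gene identifier against RefSeq of GRCh38.p14 (41043 matched, 0 changed). Where a gene had several probe sets, the one with the highest mean stood for it. Floor and threshold are given in the report. limma 3.58.1 in R 4.3.3 was tested on simulated data; Python 3.11.15 with numpy 2.4.6, pandas 2.3.3 and statsmodels 0.14.6 served for the rest. Promoter letters were searched on both strands.

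Members and gene lists were chosen with earlier results of these data known. All members were named, with list genes that changed 2-fold in a pair, up to 4 per list and direction between the vector lines, and the 3 genes most like EGR1 and CCN2. SRF, ELK4, MYC, NR4A1, FOSB, FOSL2, KLF6, TPM1, AMOTL2, AXL, NAB1, EGR3, EGR4, VIL1, EPCAM and KRT18 were named beyond this after their values were seen. As alternatives, the floor was dropped or set to 7, and the others were quantile normalization, equal medians, removal of a loess (span 0.3), the mean of probe sets, leaving out shared probe sets, levels under 6 set to 6, thresholds of 1.5-fold and 3-fold, and for limma an intensity trend, robust moderation and the other term left out.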

Additional observations from a re-analysis of the deposited data

Results flagged for a closer look

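FOS and CCN2 differed between the lines in how they moved with the CDX1 label. FOS was 0.99 higher on the array labelled HCT116-CDX1 than in HCT116-Vec and also 0.93 higher in LS174T-siCDX1 than in LS174T-siVec, so its difference with the label in LS174T minus that in HCT116 was -1.92. CCN2 was lower on the array labelled HCT116-CDX1 than in HCT116-Vec, at -0.56, and also in LS174T-siCDX1 against LS174T-siVec, at -2.25, which gave 2.81 between the lines as read. Both lower levels lay under 6, and with levels under 6 set to 6 the difference between the lines was 2.10. Each pair has 1 array on each side, and the difference between the lines was not tested for either gene.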

How the results depend on the processing

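Of 44 recomputed counts of member genes or probe sets, 36 stayed within 1.5 times the reported count. In HCT116 the count of changed members, 0 as reported, was 1 after quantile normalization (FOS at 1.02), 2 after the loess (FOS at 1.04, JUNB at 1.01) and 4 at 1.5-fold (EGR1, IER3, FOS and JUNB). In LS174T the count of 3 was 1 (CCN2) without shared probe sets, which leave EGR1 and IER3 unread, and 1 (CCN2) at 3-fold. Quantile normalization added FOS there at 1.03. Between the vector lines the count of 5 was 3 without shared probe sets and 3 at 3-fold. For the cell line term of limma 4 of 7 member probe sets passed without shared ones, which tests fewer probe sets. The CDX1 label term called 0 under each of the 7 other limma settings. None of the 8 called differences of single members reversed under the settings run, and of 27 differences 1 changed sign in any of them: JUN between the vector lines, at -0.32 as reported and 0.31 without shared probe sets. Dropping or moving the floor and changing the threshold leave a difference itself unchanged, so these settings could not reverse a sign. Nor could the mean of probe sets for a gene with 1 probe set. Leaving out an array leaves no residual degree of freedom in limma and was not run.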
